A study of Rattus norvegicus with 18 samples.

Results

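The genes described here are 10 markers of hippocampal interneurons, chosen by name: Sst, Cort, Cck, Vip, Tac1, Pvalb, Calb2, Reln, Nos1 and Lhx6. They are 10 of the 38445 genes counted, and all 10 were among the 17853 genes that passed the filter on low values (over 0.5 counts per 1000000, CPM, in at least 1 rat). RNA-Seq was performed on the dorsal hippocampus of 18 adult male wild-type Sprague Dawley rats, purchased at 75 to 85 days of age, with 6 rats in each of 3 groups. Control rats received a nutritionally complete liquid diet. Ethanol rats received that diet with ethanol, at 9% for 16 days and without withdrawal. Withdrawal rats received the 9% diet for 15 days and were then returned to the control diet for 24 h. Rats were pair fed, and each library came from 1 rat.

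Interneurons are the inhibitory neurons of the hippocampus: they release GABA onto pyramidal cells, granule cells and each other, and most are local. They are sorted into subclasses by the neuropeptides and calcium-binding proteins they make and by the part of the cell they contact, such as soma-targeting parvalbumin and cholecystokinin basket cells, dendrite-targeting somatostatin cells and interneuron-targeting VIP and calretinin cells. Several of these genes are also used by other cells: Cck by pyramidal cells, Reln by Cajal-Retzius cells, and Calb2, Tac1 and Nos1 by neurons of neighbouring brain regions.

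The 5' ends of 3 of these genes are shown first, because Sst, Cort and Nos1 differed in their matches to the cAMP response element (CRE), the classical motif of activity-dependent neuropeptide transcription. Promoter sequences from RefSeq (build GRCr8) were matched for 8 of the 10 genes, and each printed window runs from 220 bases before to 30 after the annotated start. Capitals mark matches to the full CRE (TGACGTCA) or to its half-site (TGACG), found on both strands. The half-site overlaps the full motif.
Sst, chr11:90461326-90461575, plus strand: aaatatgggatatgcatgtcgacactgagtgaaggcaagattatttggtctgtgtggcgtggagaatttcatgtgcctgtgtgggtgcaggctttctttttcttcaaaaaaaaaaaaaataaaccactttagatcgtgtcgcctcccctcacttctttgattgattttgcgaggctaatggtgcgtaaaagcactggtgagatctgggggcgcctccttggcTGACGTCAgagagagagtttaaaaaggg
Cort, chr5:164845095-164845344, minus strand: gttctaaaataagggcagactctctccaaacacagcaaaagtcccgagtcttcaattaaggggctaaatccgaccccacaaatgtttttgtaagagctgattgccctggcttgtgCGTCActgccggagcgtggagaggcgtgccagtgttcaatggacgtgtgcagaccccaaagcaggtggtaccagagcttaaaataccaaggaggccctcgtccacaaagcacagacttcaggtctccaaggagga
Nos1, chr12:44371808-44372057, minus strand: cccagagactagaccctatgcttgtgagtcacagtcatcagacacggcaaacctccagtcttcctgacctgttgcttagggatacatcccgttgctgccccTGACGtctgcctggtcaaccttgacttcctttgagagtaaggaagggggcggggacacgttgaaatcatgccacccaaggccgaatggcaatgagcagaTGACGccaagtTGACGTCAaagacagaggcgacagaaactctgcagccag
The full CRE was matched in 2 of the 8 genes, at positions 3 to 10 after the annotated start of Sst and at -9 to -2 in Nos1. These positions and the windows searched depend on the annotated starts, which were not checked. Of all 27457 promoter windows of 300 bases, 1.91% held it. The half-site occurred in 6 of the 8 genes, against 22% of all windows. Cort held a single half-site, at -105 to -101 on the opposite strand, and no full CRE. Neither a STAT motif (TTCNNNGAA, in 8.68% of all windows) nor a MEF2 motif (CTA and TAG with 4 bases between them, in 3.83%) was matched in any of the 8 windows, and the TATA motif (TATAAA, in 14.3%) was matched in Vip alone. These matches describe letters in 1 window and not binding.

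The libraries held 30873228 to 42679748 counts assigned to genes. The labelled tissue was checked with marker lists for CA1, CA2 and CA3 pyramidal cells, dentate granule cells and neighbouring tissue. Summed CPM of the 6 CA1 markers was 472 to 646 in Control, 251 to 660 in Ethanol and 281 to 677 in Withdrawal rats. Ethanol rat 1 and Withdrawal rat 5 stood lowest at 251 and 281, and Withdrawal rat 5 was also lowest for the 7 CA2 and CA3 markers (250, against 360 to 769 in the other 17 rats). Among these lists, 1 of the 6 CA1 markers, 1 of the 7 CA2 and CA3 markers, 2 of the 6 dentate markers and 1 of the 8 choroid plexus markers stayed under 0.5 CPM in all rats. The 10 thalamus and habenula markers summed to 299 to 1664 CPM and the 8 choroid plexus markers to 31.8 to 5314 CPM, and both varied widely between rats. The 6 striatum markers summed to 107 to 139 CPM in Control, 123 to 491 in Ethanol and 127 to 195 in Withdrawal rats, with Ethanol rats 1 and 4 highest at 491 and 371. All 6 Control libraries shared 1 index set, the 6 Ethanol and 2 Withdrawal libraries another, and 4 Withdrawal libraries yet another, so index set and Control group cannot be told apart.

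In Control rats the markers spanned a wide range of levels. Per kilobase of exon, Cck, which encodes cholecystokinin, was highest at 69.9 ± 8.50 CPM per kb (SD, n = 6), followed by Sst at 50.03 ± 7.20, Pvalb at 41.2 ± 3.24 and Calb2 at 27.2 ± 13.6. Tac1 (15.3 ± 6.34), Vip (10.04 ± 0.659) and Reln (8.27 ± 1.06) lay in the middle of the order. Nos1 (4.65 ± 0.786), Cort (4.17 ± 0.439) and Lhx6 (1.92 ± 0.319), a transcription factor of interneurons from the medial ganglionic eminence, were lowest.
In this order, 4 pairs of neighbours did not differ beyond the spread of their paired differences between rats by an exact paired permutation test (two-sided, with a smallest possible p of 0.0312): Sst and Pvalb (p = 0.0625), Pvalb and Calb2 (p = 0.0625), Tac1 and Vip (p = 0.281) and Nos1 and Cort (p = 0.125). The other 5 neighbouring pairs kept 1 order in 6 of 6 Control rats (exact permutation p = 0.0312 each, the smallest the test allows). Pairs and directions were set by the means of these same rats, so the p-values are no independent test of the order.

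**Figure D1:**
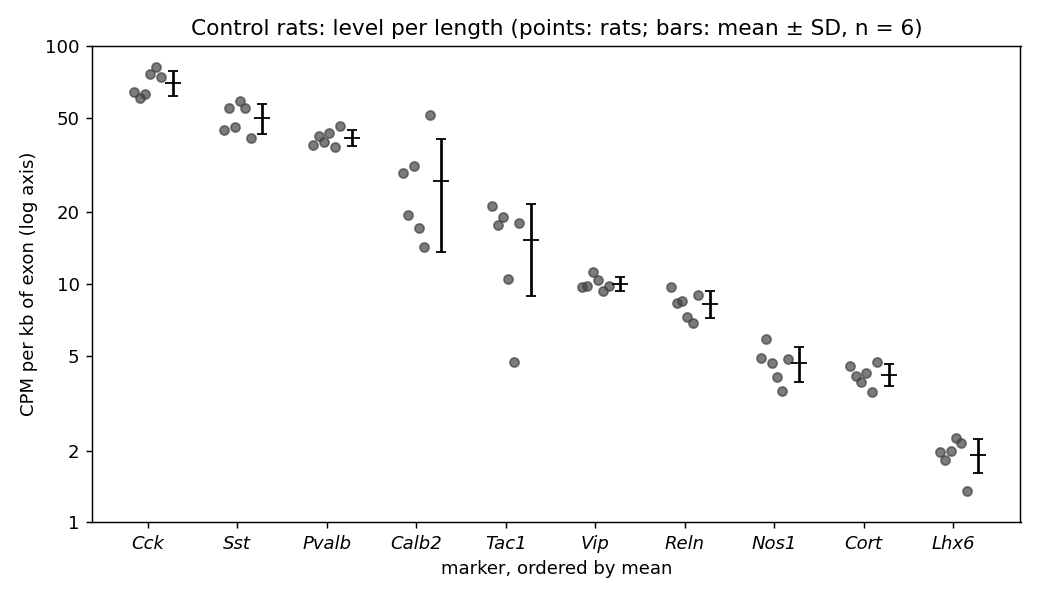
Level of each marker in the 6 Control rats, as CPM per kilobase of exon on a log axis, ordered by mean. Points are rats and bars are mean ± SD. Cck, Sst and Pvalb stand highest and Lhx6 lowest, and Calb2 and Tac1 spread most widely between rats.

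Spread between rats also differed from marker to marker. Among Control rats the coefficient of variation was 6.56% for Vip and 7.87% for Pvalb but 41.5% for Tac1 and 49.9% for Calb2. Over all 18 rats, the highest level was 1.67 times the lowest for Reln and 2.07 times for Pvalb. It was 9.15 times the lowest for Calb2, 11.5 times for Tac1 and 12.05 times for Cort. Counting error alone gave a coefficient of variation of 1.39% to 5.92% per group for the 9 other markers and 8.20% to 15.0% for Cort, which rested on 18 to 231 reads a library. The Cort coefficient of variation between rats was 10.5% in Control, 64.3% in Ethanol and 39.1% in Withdrawal rats. The Control value fell below the 12.5% given by counting error alone. The Control range of Cort, to which other rats are compared below, was therefore narrower than counting alone gives on average.

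**Figure D2:**
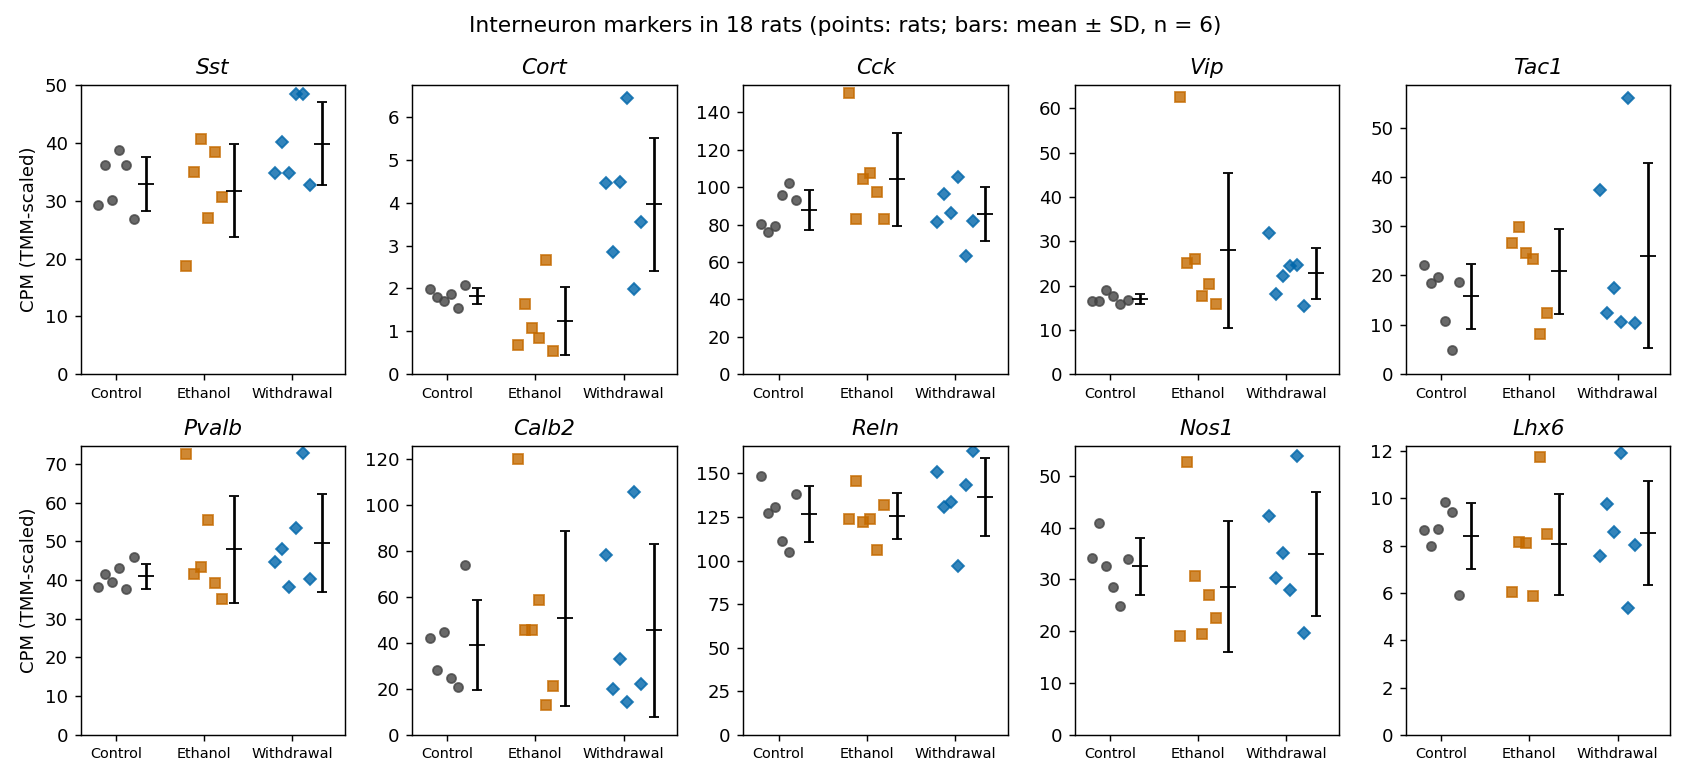
CPM of the 10 markers in each rat, with the Control, Ethanol and Withdrawal groups along the horizontal axis. Points are rats and bars are mean ± SD (n = 6). Cort is higher in 5 of 6 Withdrawal rats than in every Control rat, while the groups of the other markers overlap more.

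Between groups, Cort was the marker that changed. Cortistatin, its product, is a neuropeptide related to somatostatin that binds somatostatin receptors and is made by a subset of GABA neurons. The gene lies at chr5:165942780-165944221 on the minus strand (build Rnor_6.0) and was counted over 2 exon records of 438 bases in all.
Cort CPM was 1.54 to 2.07 in Control rats (median 1.83), 0.535 to 2.66 in Ethanol rats (median 0.962) and 1.99 to 6.45 in Withdrawal rats (median 4.01). Of the 6 Withdrawal rats, 5 were above every Control rat and above every Ethanol rat, and Withdrawal rat 5, at 1.99, lay within both ranges. Mean CPM was 1.82 ± 0.192 in Control, 1.24 ± 0.798 in Ethanol and 3.96 ± 1.55 in Withdrawal (SD, n = 6). Cort was higher in Withdrawal than in Control by 1.05 on the log2 scale (SE 0.217, limma-voom with 3 surrogate variables, adjusted p = 0.0258 over all genes tested). Its difference from Ethanol was 1.31 (SE 0.263, limma-voom adjusted p = 0.0346). Both comparisons use the same 6 Withdrawal rats. An exact permutation test on log2 CPM without surrogate variables gave p = 0.00433 for each (two-sided, n = 6 against 6, with a smallest possible p of 0.00216). Adjusted over all genes, these exact permutation p-values were 0.214 and 0.192.

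In Ethanol rats Cort did not pass the test against Control (log2 difference -0.27, SE 0.278, limma-voom adjusted p = 0.742). The size of this difference was not stable, at -0.75 without surrogate variables, -0.50 without Ethanol rat 5, -0.07 without Ethanol rat 6 and -0.08 without Control rat 6, and it passed in none of these fits (limma-voom adjusted p from 0.448 to 0.960). Of the 6 Ethanol rats, 4 were below every Control rat, whereas Ethanol rat 5, at 2.66 CPM, was above them all (exact permutation p = 0.0584, n = 6 against 6).
The Cort call depended on the model and on single rats. Without surrogate variables the Withdrawal to Control difference was 1.01 with a limma-voom adjusted p of 0.193. Without Withdrawal rat 6 it was 0.97 (limma-voom adjusted p = 0.127), and the difference from Ethanol was 1.19 (adjusted p = 0.267), in fits where 23 genes and no gene passed. Without Ethanol rat 2 or Ethanol rat 3 the adjusted p against Ethanol was 0.166 and 0.149 by limma-voom. The difference from Ethanol also did not pass with only these 2 groups fitted (1.31, limma-voom adjusted p = 0.150) or when a replicate block was added to the 3 surrogate variables (1.21, adjusted p = 0.149 by limma-voom). With the 2 Withdrawal rats of the Ethanol index set alone, which had 4.46 and 2.84 CPM, the difference was 1.69 and did not pass (limma-voom adjusted p = 0.770, no surrogate variables), a fit in which no gene passed. Leaving out the 2 rats lowest in CA1 markers, a choice made after seeing the data, gave 1.07 against Control and 1.42 against Ethanol (limma-voom adjusted p = 0.02 and 0.034). One of these 2 was Withdrawal rat 5, the Withdrawal rat lowest in Cort, so this fit favours the call by its choice of rats. The same fit without surrogate variables gave 1.19 and 1.81 (limma-voom adjusted p = 0.1003 and 0.0360) and did not pass against Control.

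The nearest genes on either side of Cort did not pass the test in any comparison. Dffa, 6958 bp before it on the plus strand, differed by -0.07 between Withdrawal and Control (limma-voom adjusted p = 0.543). Cenps, 1885 bp after it on the minus strand, differed by 0.09 (adjusted p = 0.465 by limma-voom). No gene in the annotation overlapped Cort, and reads were counted by strand. Cenps lies upstream of Cort on the same strand, so counting by strand does not set apart reads that run on from it. Such reads were not tested for.

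**Figure D3:**
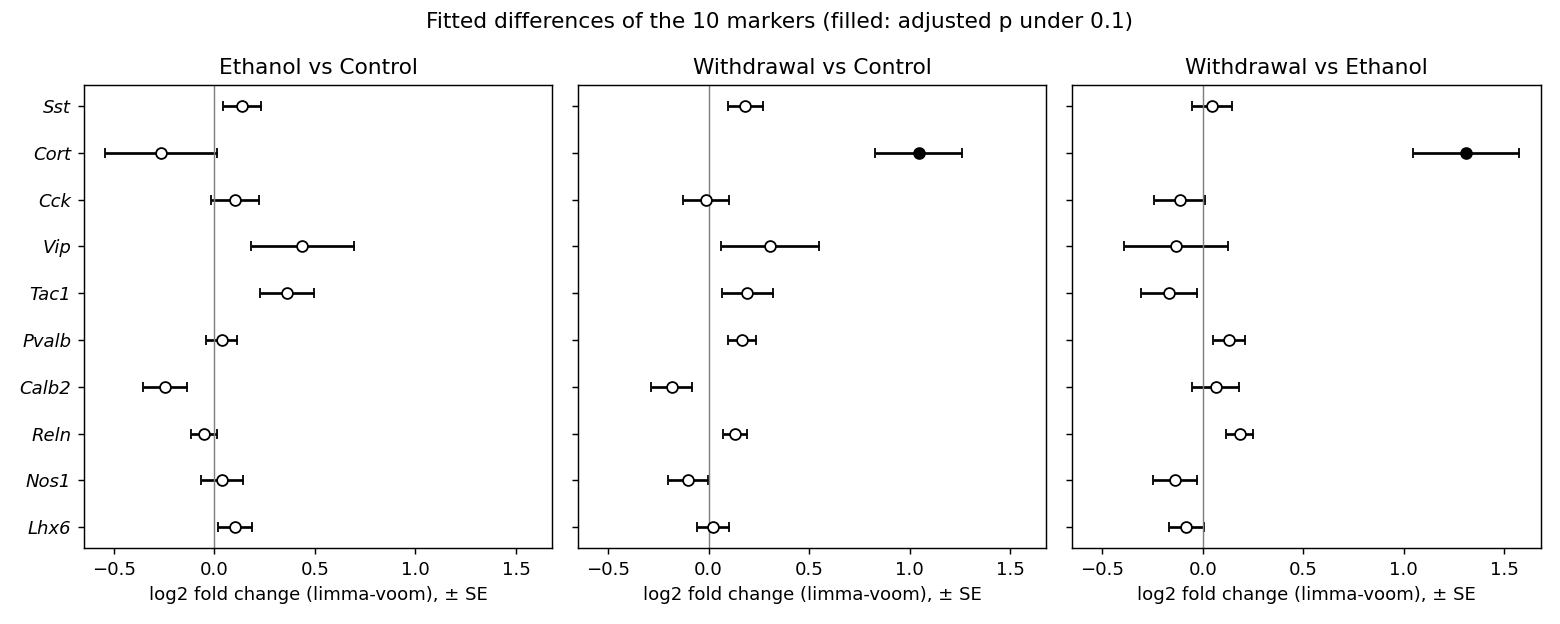
Fitted log2 fold change ± SE of each marker in the 3 comparisons, from limma-voom with 3 surrogate variables. Filled points passed an adjusted p of 0.1, which Cort alone did, in Withdrawal against Control (1.05) and against Ethanol (1.31).

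Sst encodes somatostatin, the relative of cortistatin that marks dendrite-targeting interneurons. Its CPM was 26.9 to 38.7 in Control (median 33.1), 18.8 to 40.7 in Ethanol (median 32.8) and 32.6 to 48.5 in Withdrawal (median 37.5). Among Withdrawal rats, 3 were above every Control rat, and Ethanol rat 1 was lowest of all. Sst did not pass in Withdrawal against Control (log2 difference 0.18, SE 0.0882, limma-voom adjusted p = 0.261).
Because both peptides act on the same receptors, Cort was also expressed relative to Sst in each rat. Cort was 4.26% to 7.68% of Sst CPM in Control rats, 1.74% to 6.92% in Ethanol rats and 4.10% to 13.3% in Withdrawal rats. The log2 ratio was 0.74 higher in Withdrawal than in Control (exact permutation p = 0.0433, 4 of 6 rats above all controls) and 1.39 higher than in Ethanol (exact permutation p = 0.00866, 5 of 6 rats above all Ethanol rats). It was 0.65 lower in Ethanol than in Control, with an exact permutation p of 0.0519. This ratio was chosen after the values were seen, and its 3 p-values are unadjusted.

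**Figure D4:**
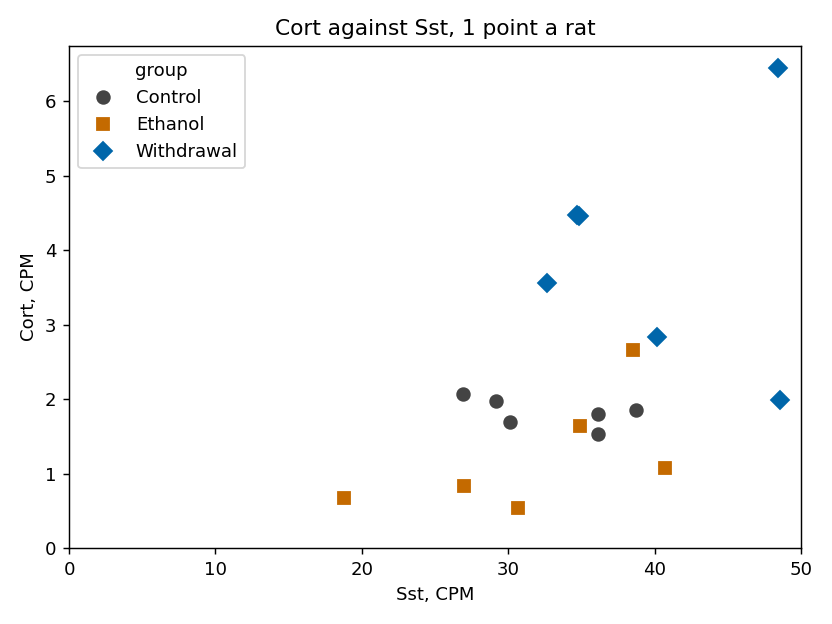
Cort CPM against Sst CPM, with 1 point for each of the 18 rats and groups by colour and shape. Withdrawal rat 5 shares the highest Sst level (48.5 CPM) with Withdrawal rat 4 (48.4 CPM) but has 1.99 CPM of Cort, against 6.45 CPM.

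Vip encodes vasoactive intestinal peptide, made by interneurons that mainly contact other interneurons. Its CPM was tightly held in Control rats, at 15.8 to 18.98 (median 16.6). It was 15.9 to 62.7 in Ethanol rats (median 22.6) and 15.3 to 31.8 in Withdrawal rats (median 23.3). In each of the Ethanol and Withdrawal groups 4 rats were above every Control rat, and Ethanol rat 1, at 62.7 CPM, stood far above the other 5 Ethanol rats (15.9 to 26.1 CPM).
The exact permutation p was 0.0368 both for Ethanol and for Withdrawal against Control (n = 6 against 6, unadjusted, shared Control rats). Vip did not pass in the fit over all genes (log2 difference 0.44, SE 0.258, limma-voom adjusted p = 0.513 for Ethanol, and 0.30, SE 0.243, adjusted p = 0.517 for Withdrawal). The Vip calls depended on which rats were fitted. With only the Ethanol and Control rats in the fit, the Ethanol difference was 0.07 (limma-voom adjusted p = 0.942), whereas with only the Withdrawal and Control rats the Withdrawal difference was 0.29 and passed (adjusted p = 0.0296 by limma-voom). Without Ethanol rat 1 the Ethanol to Control difference was 0.41 and passed (limma-voom adjusted p = 0.0529). Without the 2 rats lowest in CA1 markers, of which Ethanol rat 1 is one, Vip passed in both comparisons with 3 surrogate variables (0.40 and 0.30, limma-voom adjusted p = 0.0308 and 0.0441) and in neither without them (0.27 and 0.32, limma-voom adjusted p = 0.674 and 0.427).

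Cck CPM was 76.05 to 102.1 in Control (median 87.0), 82.9 to 150.4 in Ethanol (median 100.8) and 63.5 to 105.5 in Withdrawal (median 84.1). Ethanol rat 1 had the highest and Withdrawal rat 5 the lowest value, and the 3 groups overlapped. No Cck comparison passed (limma-voom adjusted p from 0.690 to 0.965).
Tac1, which encodes the substance P precursor, was 4.86 to 22.1 CPM in Control (median 18.6), 8.16 to 29.9 in Ethanol (median 23.9) and 10.4 to 56.1 in Withdrawal (median 14.9). Among Ethanol rats, 4 were above every Control rat, and Withdrawal rats 5 and 1 were highest of all at 56.1 and 37.3 CPM. The Ethanol to Control difference was 0.36 (SE 0.134, limma-voom adjusted p = 0.278) and did not pass.

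Pvalb encodes parvalbumin, the calcium buffer of fast-spiking basket cells. Its CPM was 37.6 to 46.04 in Control (median 40.6), 35.1 to 72.7 in Ethanol (median 42.4) and 38.1 to 72.8 in Withdrawal (median 46.3). The highest values, 72.7 and 72.8, came from Ethanol rat 1 and Withdrawal rat 5, the 2 rats lowest in CA1 markers. The Withdrawal to Control difference was 0.17 (SE 0.0714, limma-voom adjusted p = 0.209).
Calb2 encodes calretinin, a calcium-binding protein of interneuron-targeting cells that is abundant in parts of the thalamus as well. It ranged over 20.7 to 73.6 CPM in Control (median 35.1), 13.1 to 120.0 in Ethanol (median 45.4) and 14.1 to 105.3 in Withdrawal (median 27.4). Ethanol rat 1 and Withdrawal rat 5 were again highest, and all 3 groups overlapped over most of their range. The fitted differences from Control, -0.25 in Ethanol and -0.18 in Withdrawal, did not pass (limma-voom adjusted p = 0.364 and 0.331), and the Ethanol value was 0.17 without surrogate variables.

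Reln encodes reelin, a secreted glycoprotein of Cajal-Retzius cells and of some interneurons. Its range over the 18 rats was the narrowest of the 10 markers in fold terms, at 105.1 to 148.3 CPM in Control (median 128.8), 105.8 to 145.5 in Ethanol (median 123.9) and 97.1 to 162.6 in Withdrawal (median 138.5). The largest fitted difference, 0.18 between Withdrawal and Ethanol (SE 0.0682), did not pass (limma-voom adjusted p = 0.186).
Nos1, the neuronal nitric oxide synthase, was 24.8 to 40.9 CPM in Control (median 33.3), 19.2 to 52.7 in Ethanol (median 24.8) and 19.7 to 53.9 in Withdrawal (median 32.7). Among Ethanol rats, 3 were below every Control rat while Ethanol rat 2 was above them all, and no comparison passed (limma-voom adjusted p from 0.558 to 0.926).
Lhx6 was 5.90 to 9.85 CPM in Control (median 8.69), 5.86 to 11.8 in Ethanol (median 8.11) and 5.35 to 11.9 in Withdrawal (median 8.31). Its group medians were close together, and no comparison passed (limma-voom adjusted p from 0.672 to 0.913).

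Counted over the 10 markers, none passed in Ethanol against Control, where 0.493% of all genes did. Beside this count of 0, 2 markers (Tac1 and Calb2) had an unadjusted limma-voom p under 0.05, where 12.5% of all genes did. Vip alone had an exact permutation p under 0.05, where 13.5% did, and edgeR and DESeq2 with 3 surrogate variables passed no marker either.
In Withdrawal against Control 1 marker passed (Cort), where 5.41% of all genes passed in either direction and 2.85% were higher. There 2 markers (Cort and Vip) had an exact permutation p under 0.05, where 12.8% of all genes did. In Withdrawal against Ethanol the same gene passed, where 2.72% of all genes passed and 1.23% were higher. No marker had groups that did not overlap in any comparison, against 1.32%, 1.06% and 1.22% of all genes for Ethanol against Control, Withdrawal against Control and Withdrawal against Ethanol. The median log2 difference of the 10 markers was 0.07, 0.15 and -0.02 in these 3 comparisons, beside 0.0005, 0.0003 and -0.0002 over all genes tested. In bulk tissue, fewer cells of a type and less RNA per cell cannot be told apart.

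The markers were also set against the GABA neuron genes Gad1 and Gad2, which make GABA, and Slc32a1, which loads it into vesicles. With group means removed, these 3 genes followed the summed midbrain and tectum factors described below (r = 0.95, 0.90 and 0.93, n = 18). The part of neighbouring tissue in differences relative to them, and in the Gad2 level, was not tested. Relative to the mean log2 CPM of these 3 genes, Cort was higher in Withdrawal than in Control by 0.75 (exact permutation p = 0.0411) and than in Ethanol by 1.30 (exact permutation p = 0.0216). Vip was higher in Ethanol than in Control by 0.73 on this scale (exact permutation p = 0.00433) and was 0.60 lower in Withdrawal than in Ethanol (exact permutation p = 0.0346), while the mean log2 CPM of Vip itself differed by -0.16 between the latter groups (exact permutation p = 0.695).
Relative to the same genes, Nos1 was lower in Withdrawal than in Control (difference -0.21, exact permutation p = 0.0173). Its own level did not pass in either direction, at a mean of 34.9 against 32.5 CPM (difference in mean log2 CPM 0.05, exact permutation p = 0.838) and a fitted difference of -0.10 (limma-voom adjusted p = 0.595). Mean CPM of Gad1, Gad2 and Slc32a1 was 291, 122 and 78.4 in Withdrawal against 252, 97.7 and 63.1 in Control rats. None of these 3 genes passed in that comparison (limma-voom adjusted p from 0.108 to 0.461). Cck was lower in Withdrawal than in Ethanol on this scale (difference -0.71, exact permutation p = 0.0433), while its own mean log2 CPM differed by -0.27 (exact permutation p = 0.130). These 6 were the comparisons under 0.05 among 30, without adjustment. Gad2 itself was higher in Withdrawal than in Ethanol by 0.35 (SE 0.0830, limma-voom adjusted p = 0.0578), at a mean of 121.8 ± 28.1 against 79.8 ± 22.7 CPM (SD, n = 6). Gad2 lost this call in 3 of the 12 fits that left out 1 rat (limma-voom adjusted p up to 0.342).

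Among 22 further markers of interneuron subclasses, 21 of which were tested, 2 rose in Withdrawal against Control and none fell, where 2.85% of all genes rose and 2.55% fell. The marker not tested was Npy, which had at most 0.0275 CPM in any rat. Whether its reads were missed in counting was not tested, so these values do not describe Npy cells. Crhbp, the binding protein of corticotropin-releasing hormone, was 5.52 to 6.76 CPM in Control rats (median 5.90), 2.70 to 11.96 in Ethanol rats (median 5.74) and 8.87 to 17.4 in Withdrawal rats (median 13.9). All 6 Withdrawal rats were above every Control rat and 4 of 6 were above every Ethanol rat. Crhbp rose by 1.08 against Control (SE 0.194, limma-voom adjusted p = 0.0195) and by 0.85 against Ethanol (SE 0.212, adjusted p = 0.0650).
Pnoc, which encodes the precursor of the opioid-like peptide nociceptin, rose by 0.41 against Control (SE 0.114, limma-voom adjusted p = 0.0724), with 5 of 6 Withdrawal rats above every Control rat. Its mean CPM was 5.87 ± 0.361 in Control and 8.18 ± 1.28 in Withdrawal (SD, n = 6). Pnoc lost its call in 8 of the 12 fits that left out 1 rat, whereas Crhbp lost it in 1 of 12 against Control, without Withdrawal rat 6 (0.96, limma-voom adjusted p = 0.114), and in 4 of 12 against Ethanol (adjusted p up to 0.358). Neither passed against Control without surrogate variables (limma-voom adjusted p = 0.115 for Crhbp and 0.219 for Pnoc). None of the 21 passed in Ethanol against Control. Over the 21 genes the median log2 difference between Withdrawal and Control was -0.01.

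Other steps of the peptide, reelin and nitric oxide pathways were counted in the same way for Withdrawal against Control, with the same shares of all genes as background. Of 8 tested peptide-processing genes, 1 rose: Pam, the enzyme that amidates peptide ends, was higher by 0.18 (SE 0.0365, limma-voom adjusted p = 0.0226), and it was also higher than in Ethanol by 0.20 (adjusted p = 0.0446). Of 11 tested receptors for these peptides none rose and 1 fell: Adcyap1r1, a PACAP receptor, was lower by 0.25 on the log2 scale (difference -0.25, SE 0.0716, limma-voom adjusted p = 0.0755).
Of 9 tested genes of the reelin pathway, the integrin subunits Itgb1 and Itga3 rose by 0.21 each (limma-voom adjusted p = 0.0322 and 0.0431), and Itgb1 was also higher than in Ethanol by 0.20 (adjusted p = 0.0744). The unadjusted exact permutation p against Control was 0.00649 for Itgb1 but 0.1775 for Itga3. Mean Itga3 was 32.3 CPM in Control, 37.1 in Ethanol and 37.0 in Withdrawal rats. In fits that left out 1 rat, the calls against Ethanol were lost in 3 of 12 for Pam and 4 of 12 for Itgb1 (limma-voom adjusted p up to 0.290 and 0.331). None of 11 nitric oxide pathway genes passed. None of 12 transcription factors of GABA neuron identity passed in any comparison, and neither did any gene of these lists in Ethanol against Control. The list genes named here as changed in Withdrawal against Control did not pass without surrogate variables (limma-voom adjusted p from 0.115 to 0.602) or without Withdrawal rat 6 (0.114 to 0.277). Other single rats mattered too: Adcyap1r1 lost its call in 8 of 12 fits that left out 1 rat and Itga3 in 2 of 12, against 1 of 12 for Pam and Itgb1. In Withdrawal against Ethanol, Crhbp, Pam, Itgb1, Gad2 and the astrocyte gene Gfap passed, and none of these 5 did with only the 2 groups compared, with a replicate block, within the shared index set, or without Ethanol rat 2, Ethanol rat 3 or Withdrawal rat 6 (limma-voom adjusted p from 0.115 to 0.770).

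Among marker lists of other cells, those for CA1, CA2 and CA3 pyramidal cells, Cajal-Retzius cells, thalamus and habenula, choroid plexus, neocortex, striatum, oligodendrocytes and microglia had no gene that passed in Withdrawal against Control. Without passing, all 6 striatum genes had a fitted difference above 0, with a median of 0.53 in Withdrawal and 0.52 in Ethanol against Control. An exact permutation p under 0.05 was found for 2 of the 6 in each comparison, where 12.8% of all genes had one in Withdrawal and 13.5% in Ethanol. Of 7 tested choroid plexus genes, 6 had a difference above 0 in Ethanol against Control (median 0.33) and 5 an exact permutation p under 0.05. All 6 tested CA2 and CA3 genes had a difference below 0 in Withdrawal against Control (median -0.15). In that comparison the endothelial genes Pecam1 and Flt1 rose (0.34 and 0.28, limma-voom adjusted p = 0.0257 and 0.0629) and the astrocyte gene Aldh1l1 fell (difference -0.41, adjusted p = 0.0487), all without a call when Withdrawal rat 6 or the surrogate variables were left out. Flt1 lost its call in 6 of the 12 fits that left out 1 rat, Aldh1l1 in 2 and Pecam1 in 1. More list genes passed there beyond the rule for naming, which counts Cort among its 10. The astrocyte gene Gfap was higher (0.54, limma-voom adjusted p = 0.0775). The astrocyte gene Gja1 and the dentate granule gene Prox1 were lower (differences -0.13 and -0.26, limma-voom adjusted p = 0.0866 and 0.0968). Gfap did not always keep this call (limma-voom adjusted p up to 0.197 with 1 rat left out, and adjusted p up to 0.4935 over the other fits). How far the Gja1 and Prox1 calls depend on the fit was not examined. In Withdrawal against Ethanol, Gfap alone passed among these lists (0.74, SE 0.174, limma-voom adjusted p = 0.0578), and it lost this call in 3 of the 12 fits that left out 1 rat (limma-voom adjusted p up to 0.290). The part of these cells in the Cort result was not tested.

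Within groups, rats that were high in one marker were often high or low in another. Correlations of log2 CPM were taken over the 18 rats after subtracting each group's mean, for all 45 pairs of markers, with 100000 permutations within groups. The permutation p was under 0.05 for 13 pairs before adjustment and for 3 after adjustment over the 45 pairs by Pearson's r.
Calb2 and Lhx6 ran in opposite directions (r = -0.88, rho = -0.83, adjusted permutation p = 0.000225 and 0.00292, n = 18). The relation was -0.82, -0.90 and -0.90 within Control, Ethanol and Withdrawal rats, and -0.81 without the 2 rats farthest from the Calb2 median. Calb2 and Tac1 ran together (r = 0.87, rho = 0.87, adjusted permutation p = 0.000225 and 0.00292), at 0.72, 0.87 and 0.98 within the 3 groups and 0.86 without the 2 farthest rats. Tac1 and Lhx6 gave r = -0.72 and rho = -0.64 (adjusted permutation p = 0.0260 and 0.0783), and r = -0.68 without the 2 farthest rats. Sst and Cort, the related peptides, were not correlated beyond the permutation spread (r = 0.31, rho = 0.22, adjusted permutation p = 0.493 and 0.649).

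The same rats differed in markers of neighbouring tissue, and these values are given as a description with no test. Calb2 followed the summed thalamus and habenula markers (r = 0.82, rho = 0.82, n = 18, group means removed) and ran against the summed CA1 markers (r = -0.85). Lhx6 did the reverse (r = -0.82 and 0.81), and Pvalb ran against the CA1 sum (r = -0.87).
Nos1 followed the summed GABA neuron list of 9 genes (r = 0.98, rho = 0.93). Its most similar genes among 15143 with a mean of at least 1 CPM were Pou4f2 (r = 0.97), Barhl1 (0.96) and Gad1 (0.96). The first and second of these are transcription factors known from the midbrain and other regions outside the hippocampus. Tac1 was most like Irx3 (r = 0.97), Cacna2d2 (0.97) and Irx5 (0.96), of which Irx3 and Irx5 are patterning factors of the same kind.
A list of 14 such midbrain and tectum factors, put together after these values were seen and including the named Pou4f2, Barhl1, Irx3 and Irx5, so that its relation to Nos1 and Tac1 is in part set by that choice, summed to 14.9 to 43.6 CPM in Control, 13.9 to 65.6 in Ethanol and 13.8 to 119.9 in Withdrawal rats, and 3 of the 14 stayed under 0.5 CPM in all rats. Its sum followed Nos1 (r = 0.92), Tac1 (0.85), Gad1 (0.95), Gad2 (0.90) and Slc32a1 (0.93), and its r with Cort was 0.01 and with Sst 0.19. Other lists moved with both peptide genes: Cort followed the CA1 sum (r = 0.57, rho = 0.44) and ran against the striatum sum (r = -0.51, rho = -0.45) and the thalamus and habenula sum (r = -0.50, rho = -0.38). Sst ran against the thalamus and habenula sum (r = -0.78, rho = -0.71), the striatum sum (r = -0.65) and the choroid plexus sum (r = -0.57). Withdrawal rat 5, with the highest midbrain and tectum sum of 119.9 CPM, also had the highest Nos1 and Tac1. The part of neighbouring tissue in the levels of these markers was not tested.

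**Figure D5:**
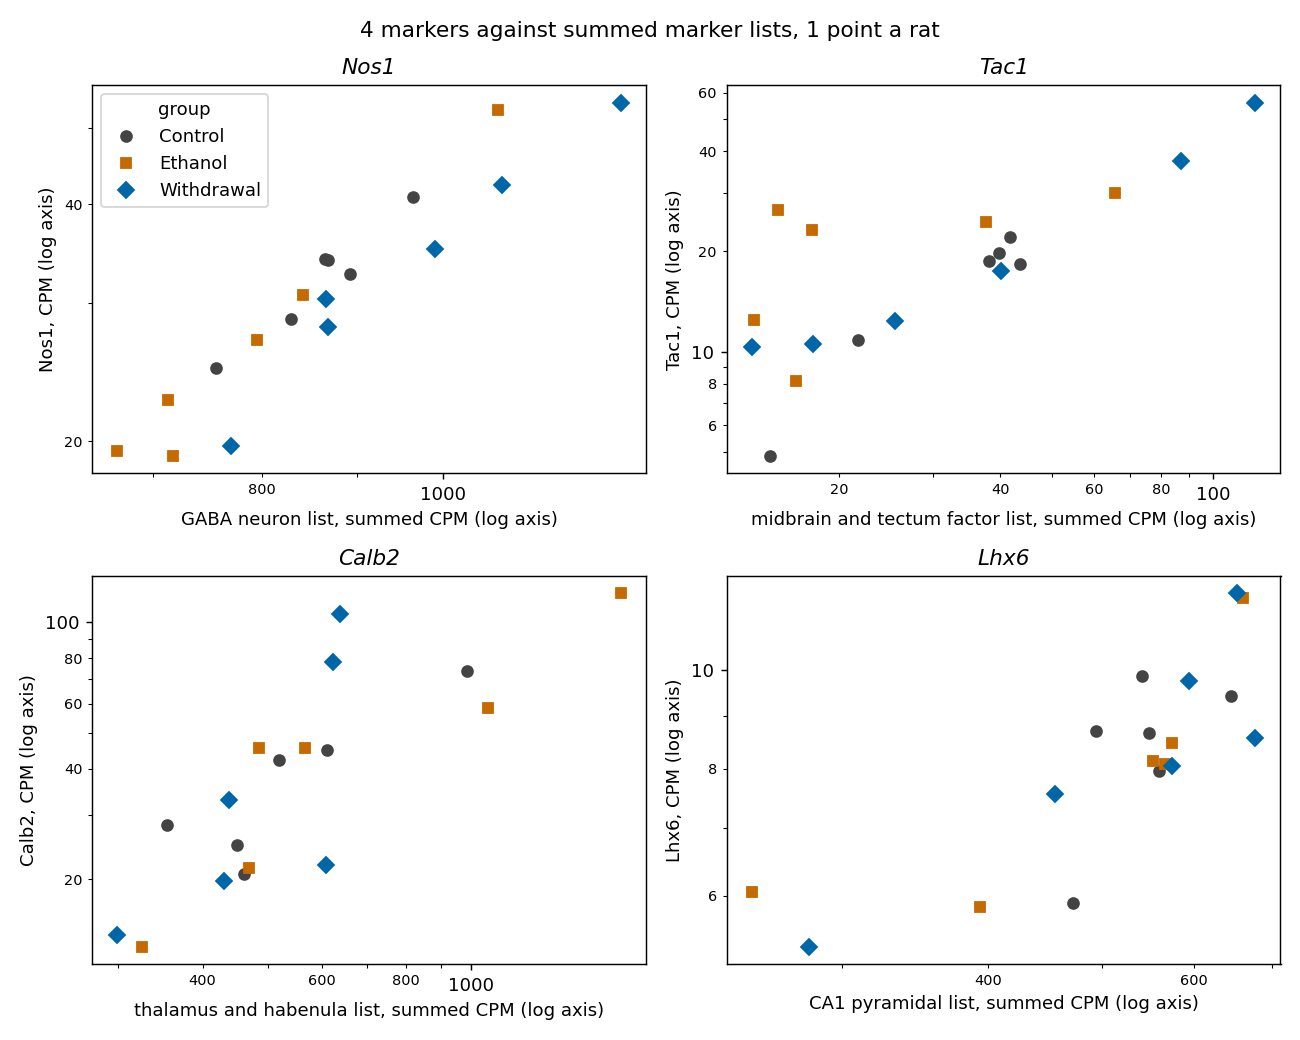
CPM of Nos1, Tac1, Calb2 and Lhx6 against the summed CPM of a marker list, on log axes with 1 point for each of 18 rats. Nos1 rises with the GABA neuron list, Tac1 with midbrain and tectum factors, Calb2 with thalamus and habenula markers and Lhx6 with CA1 markers, with rats of all 3 groups along each trend.

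The genes most like the other markers, by Pearson's r over the 18 rats with group means removed, were Mef2d for Cort (r = 0.88), Abcc5 for Sst (0.92), Ralb for Cck (0.87) and Arhgef10l for Vip (0.87). They were Entpd3 for Pvalb (0.90), Camk2d for Calb2 (0.98), Lipe for Reln (0.88) and Mmp17 for Lhx6 (0.94). Mef2d did not pass in Withdrawal against Control (log2 difference 0.05, limma-voom adjusted p = 0.665).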

How the data were processed

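Per the file headers, the authors aligned the paired stranded reads to Rnor_6.0 and deposited raw read counts per gene from featureCounts (version 1.5.0, exons summed per gene, strand-specific), 1 file per rat. The submitters' processing notes also name STAR (2.5.2a). Groups were taken from the treatment label. The counts were filtered (over 0.5 CPM in at least 1 rat) and scaled by TMM in edgeR (4.0.16). CPM here are TMM-scaled, and log2 CPM, used for surrogate variables, permutation tests and correlations, had a prior count of 2. All 3 groups were fitted with limma-voom (3.58.1) and 3 surrogate variables from sva (3.50.0), with Benjamini-Hochberg adjustment over 17853 genes and a threshold of 0.1. Surrogate variables are estimated from the same libraries and shift fitted differences away from plain group means. Single values were also compared by exact permutation over the 924 splits of 6 against 6 rats. P-values for members are not adjusted over the list.

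The members and gene lists were chosen with earlier results of these data known. Named genes were the members, the list genes that passed (at most 10 a comparison, smallest adjusted p first), the neighbours of members that passed and the 3 genes most like each member, of which the text names those it describes. Libraries of a group were from different rats and differed by more than counting noise in all 45 pairs within groups. Replicate numbers do not pair rats. Alternatives were edgeR and DESeq2 (1.42.0), other numbers of surrogate variables, filters and scalings, fewer groups, a block and leaving out rats. The fits were also run on simulated counts, and the outcome of that run is not given here. Library totals are given with the results, and counting error is given beside the spread between rats, which was larger for Cort in the Ethanol and Withdrawal groups. Promoters came from RefSeq (GRCr8), whose coordinates differ from Rnor_6.0.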

Additional observations from a re-analysis of the deposited data

Results flagged for a closer look

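Vip in Ethanol rat 1, at 62.7 CPM, lay farther from the other 5 Ethanol rats (15.9 to 26.1 CPM) than Dixon's 95% limit for 6 values allows (gap over range 0.639, limit 0.625). It was the single value to do so among 30 groups of 6 tested, where chance passes about 5% of groups.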

How the results depend on the processing

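Cort kept its direction in every alternative tried for the 3 comparisons, but not always its call. Against Control, 0 markers passed without surrogate variables (limma-voom or edgeR), in the replicate block without them, or without them and the 2 rats lowest in CA1 markers, and 2 passed with only the 2 groups compared (Cort and Vip), with the replicate block and 3 surrogate variables (Cort and Pvalb), and without the 2 rats lowest in CA1 markers (Cort and Vip). Against Ethanol, 0 passed with only the 2 groups compared, with the block (with or without surrogate variables) and within the shared index set. In Ethanol against Control, 1 passed without the 2 rats lowest in CA1 markers (Vip), an alternative chosen after seeing the data. Leaving out each rat gave 0 to 1 passing markers against Control in Ethanol (Vip, without Ethanol rat 1) and in Withdrawal, and 0 to 2 in Withdrawal against Ethanol, where Reln passed without Withdrawal rat 1 (limma-voom adjusted p = 0.0953). The Cort difference then ran from 0.91 to 1.20 against Control and from 1.13 to 1.58 against Ethanol, and from -0.50 to -0.07 in Ethanol against Control.

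With the replicate number as a block, the Cort difference was 1.01 against Control and 1.21 against Ethanol with 3 surrogate variables (limma-voom adjusted p = 0.0708 and 0.149), and 1.02 and 1.75 without them (0.345 and 0.107). The numbers gave no sign of pairing: 4 of 18 same-numbered pairs had r over 0.1, and 5 of 18 rats correlated best with their own number.

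Calb2 changed sign in Ethanol against Control without surrogate variables (0.17), in edgeR without them (0.37) and in the block without them (0.21), and in Withdrawal against Control in edgeR without them (0.21). Over all 10 markers and 3 comparisons, 50 of 430 refits that left out no single rat changed sign, none of them passing (lowest adjusted p 0.515), and the cause was not tested. Of the list genes, 9 named under the naming rule as passing in Withdrawal against Control and 5 in Withdrawal against Ethanol kept their direction in every alternative but not their calls. Against Control, 0 of the 9 passed without surrogate variables (limma-voom, edgeR or the block) or without Withdrawal rat 6, and 1 passed without them and the 2 rats lowest in CA1 markers. Against Ethanol, 0 of the 5 passed in 7 alternatives: only the 2 groups compared, the block with and without surrogate variables, the shared index set, and without Ethanol rat 2, Ethanol rat 3 or Withdrawal rat 6. Vip in Ethanol against Control fell from 0.44 to 0.07 with only the 2 groups compared (limma-voom adjusted p = 0.942). Cort had the fewest reads of the markers, at 18 to 231 a library.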
